A study of Mus musculus with 12 samples.

Results

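The late state of the intestine after induced loss of Fgfr1op, a gene of the centrosome whose current symbol is Cep43, was described by comparing knockout (KO) with wild-type (WT) jejunum at day 12. The comparison used 4 of the 12 arrays of the series: 2 mice labelled ko and 2 labelled wt, with 1 array per mouse. Days 6 and 9, with 2 mice per genotype each, entered to show where day 12 differed. Their arrays also contributed to the estimate of spread used in the tests of day 12. Every mouse of the series was profiled as whole jejunum, the middle stretch of the small intestine, on the Affymetrix Mouse Gene 1.0 ST array, and days are counted on a scale the labels call post-tamoxifen. Tamoxifen, the drug that switches on the recombinase in such models, was injected intraperitoneally for 5 successive days, at a dose of 75 mg/kg. The sources used here do not give the driver of the recombinase, the deleted part of the gene, the age of the mice, or whether material was pooled. Nor do they say if the WT animals had the drug, the recombinase or the same parents, so that gene loss cannot be told apart from drug or recombinase effects. In what follows KO and WT stand for the arrays so labelled, and mouse 1 and mouse 2 for the replicate numbers of the labels.

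The small intestine renews its lining from stem cells at the base of the crypts. Their daughters divide, leave the cycle and mature into absorptive enterocytes, which digest and take up nutrients at a brush border of microvilli, or into secretory goblet, Paneth, enteroendocrine and tuft cells. Cep43 helps anchor microtubules at centrioles, the paired structures that organise the mitotic spindle and the base of cilia. After injury, surviving crypt cells can take on a regenerative programme that resembles fetal gut epithelium and is marked by genes such as Clu, Anxa1 and Ly6a.

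All probe sets with exactly 1 gene symbol were used, with 1 probe set per gene, the one with the highest mean over the 12 arrays, which gave 19938 genes. Values are the deposited log2 signals, so a difference of 1 is a 2-fold change of signal. A difference is KO minus WT, between means of 2 mice per genotype. Its standard error (SE) comes from the spread pooled over all 12 arrays and moderated across genes. A gene thus has the same SE at days 6, 9 and 12, and the SE is not the spread of the day 12 mice alone. Each difference was tested with limma over all genes, and an adjusted p below 0.05 counts as a call. A signal under 5.0, the 25th percentile of all values, was taken as dim, and no fold is given for a gene whose group mean was dim. At day 12 limma called 5452 genes (27.3%), of which 2723 (13.7%) rose in KO and 2729 (13.7%) fell. These shares are the background against which each count below is to be read. They run over dim genes too. A filter that kept the 15575 genes above the dim limit in 2 or more arrays gave 5445 calls, a higher share. The background for lists of brighter genes is therefore higher than the shares given here. A total of 489 genes rose and 701 fell by 2-fold or more, and 30 rose and 66 fell by 8-fold or more. The median difference over all genes was 0.02. The 2 KO arrays lay on 1 side of both WT arrays for each of the 5452 called genes. This adds little to the calls, since uncalled genes such as Cdh1 and Epcam also had groups that did not overlap. The share over all genes is not given here. With 2 mice against 2, an exact permutation test cannot give a p below 0.333, so every call rests on the spread shared by all 12 arrays. The number of calls was 3740 without WT mouse 2 and 5557 at most when 1 array was left out.

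Cep43, the targeted gene, stood at 6.83 (mouse 1) and 7.04 (mouse 2) in the WT arrays of day 12. The KO arrays were at 6.97 and 6.74. The groups overlapped, and the difference of -0.09 (SE 0.11) did not pass (adjusted p = 0.638). The gene fell at day 9 (difference -0.39, SE 0.11, adjusted p = 0.0184). Because the deleted part is not given, the probe set may lie outside it, and a whole-tissue signal includes every cell that escaped deletion. The signal therefore does not bear out the KO label at day 12 and does not contradict it either.

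Sex is not in the labels, and the sex-linked genes differed between days. Xist, the RNA of the inactive X chromosome, stood between 9.92 and 10.08 in the 4 arrays of day 12 and between 4.03 and 4.34 in the 4 arrays of day 9. The Y-linked Eif2s3y stood between 3.87 and 4.01 at day 12 and between 8.14 and 8.76 at day 9. At day 6 WT mouse 2 stood apart, with Xist at 9.78 and Eif2s3y at 4.03, while the other 3 arrays had Xist at 4.03 to 4.37 and Eif2s3y at 8.09 to 8.85. The Y-linked Kdm5d and Uty split the arrays in the same way. KO and WT of day 12 thus had 1 pattern of these genes, as did KO and WT of day 9. In any comparison of day 12 with day 9, day and sex cannot be told apart, and in the comparison with day 6 sex also differs within the WT pair. None of the 4 sex-linked genes was called at day 12, and without WT mouse 2 of day 6 the calls of day 12 numbered 5378.

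The labelled tissue was borne out by its markers in the WT arrays. Lct, the lactase of the jejunal brush border, stood at 12.41 and 12.25, and Gata4, a transcription factor of the upper small intestine, at 10.10 and 10.24. Markers of the ileum were near the dim limit at day 12, with Fabp6, its bile acid binding protein, at 5.57 and 4.99. In the WT arrays of other days Fabp6 stood at 5.79 and 9.02 (day 6) and at 6.02 and 7.23 (day 9). The part of this in the changes between days was not tested. In whole tissue, fewer cells of a type and less RNA per cell cannot be told apart, and this holds for every cell type marker below.

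The largest rise of day 12 was that of Anxa10, an annexin of gastric-type epithelium, which stood at 4.35 and 4.27 in the WT arrays and reached 11.95 and 11.62 in the KO arrays. Its difference was 7.47 (SE 0.15, adjusted p = 3.96e-10). Anxa10 was dim in WT, so its rise went from a dim signal to a bright one in both KO mice. Fezf1, a zinc finger transcription factor of the developing forebrain, stood at 5.2 and 5.37 in WT and 10.89 and 11.65 in KO, a 63.1-fold rise (difference 5.98, SE 0.19, adjusted p = 3.18e-09). Slc7a11, the cystine-glutamate exchanger, stood at 4.98 and 5.89 in WT and 10.38 and 10.17 in KO, a 28.6-fold rise (difference 4.84, SE 0.29, adjusted p = 3.31e-07). For these 3 genes the gap between genotypes was many times the gap between mice of a genotype. Slc40a1, ferroportin, which exports iron from enterocytes, stood at 6.98 and 6.84 in WT and 11.74 and 11.54 in KO, a 26.6-fold rise (difference 4.73, SE 0.15). Sprr1a, a cornified envelope protein, stood at 8.78 and 8.64 in WT and 12.97 and 13.14 in KO, a 20.3-fold rise (difference 4.34, SE 0.35).

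Rises of 3.77 to 4.45 were seen in 9 further genes named by size. Dim in WT among them were the protease inhibitor family member Wfdc18 (difference 4.45, SE 0.35), the mucin-like Mucl3 (4.16, SE 0.15) and the serpin Serpinb9b (4.05, SE 0.14). Wfdc18 was the least even of the named rises, with 10.07 in KO mouse 1 and 8.51 in KO mouse 2, both far above the WT signals of 4.79 and 4.89. Plscr4, of the phospholipid scramblase family, rose 17.4-fold (difference 4.12, SE 0.22) and Gml, a membrane-anchored protein of the Ly6 family, 16.2-fold (4.02, SE 0.19). The ferric reductase Cybrd1 rose 15.6-fold (3.97, SE 0.21). Akp3, an intestinal alkaline phosphatase, rose 15.4-fold, from 7.53 and 7.51 in WT to 11.15 and 11.78 in KO (3.94, SE 0.41). Il1rn, the interleukin 1 receptor antagonist, rose 14.7-fold (3.88, SE 0.14) and Vldlr, a receptor for triglyceride-rich lipoproteins, 13.6-fold (3.77, SE 0.14). In none of the 14 did a KO array come within 3 log2 units of the WT mean.

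The largest fall was that of Olfm4, a secreted protein abundant in crypt base stem cells, from 12.51 and 12.42 in WT to 5.95 and 5.77 in KO. This was a 97.4-fold fall (difference -6.61, SE 0.16, adjusted p = 5.85e-10). Olfm4 was thus among the bright signals in WT and close to the dim limit in both KO mice. Enpp7, the alkaline sphingomyelinase of the brush border, fell 89.7-fold, from 12.70 and 12.34 to 5.48 and 6.58 (difference -6.49, SE 0.26, adjusted p = 2.01e-08). Lct fell 80.0-fold, from 12.41 and 12.25 to 5.73 and 6.29 (-6.32, SE 0.19, adjusted p = 2.07e-09). Aoc1, the diamine oxidase that breaks down histamine, fell 62.0-fold, from 12.53 and 12.33 to 6.33 and 6.62 (-5.95, SE 0.13, adjusted p = 3.97e-10). The enzymes Enpp7, Lct and Aoc1 all belong to mature enterocytes, and in each of them KO mouse 1 was the lower of the KO pair.

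The other 10 named falls were also of enterocyte products for the most part. Transporters among them were the lactate transporter Slc5a12, 43.9-fold lower (difference -5.45, SE 0.28), the vitamin C transporter Slc23a1, 35.0-fold lower (-5.13, SE 0.14), and the phosphate transporter Slc34a2 (-5.31, SE 0.20), whose KO mean was dim. Among the enzymes, the brush border peptidase Naaladl1 fell 38.5-fold (-5.27, SE 0.25), the alcohol dehydrogenase Adh6a 35.6-fold (-5.15, SE 0.21) and the aspartoacylase Aspa 29.0-fold (-4.86, SE 0.13). Cyp2b10, a cytochrome P450 of drug metabolism, fell 20.5-fold (-4.36, SE 0.26) and Arg2, the mitochondrial arginase, 19.1-fold (-4.26, SE 0.17). The trypsin inhibitor Spink1 fell by 5.67 (SE 0.16), with a dim KO mean, and Apol10a, of the apolipoprotein L family, 36.1-fold (-5.17, SE 0.28). All 28 calls held with any 1 array left out.

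**Figure D1:**
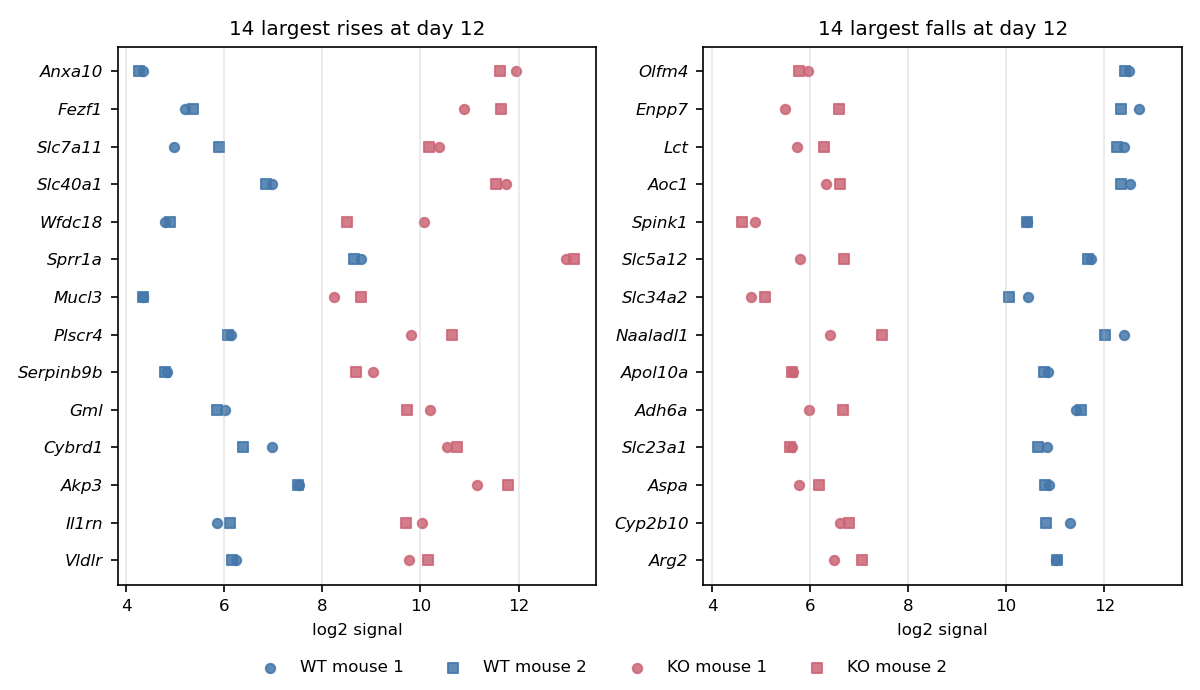
Log2 signal of the 14 largest rises and the 14 largest falls at day 12, by gene, with 1 point per array (2 WT and 2 KO mice). The KO points stand apart from the WT points in every gene, and the KO pair is widest for Wfdc18 among the rises (10.07 and 8.51) and for Enpp7 among the falls (5.48 and 6.58).

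To describe the state by function, 51 gene lists were used, with 1065 distinct genes measured. Of these, 580 were called at day 12, and 416 of the 580 calls held in each of the 20 other settings tried, arrays left out included. Where the text names a call that ended when an array was left out, it says so. The lists were chosen with earlier results of these data known. They are described by counts and medians only, and the order of their medians is no independent support.

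The digestive enzymes of the brush border were lower in KO. Of 18 measured hydrolases 13 fell and 2 rose, with a median difference of -1.77. Beside Lct, Enpp7 and Naaladl1, falls were seen in the dipeptidyl peptidase Dpp4 (difference -3.48, SE 0.16), the peptidase Xpnpep2 (-3.37, SE 0.19), the metalloprotease Mep1a (-3.22, SE 0.25) and the aminopeptidase Anpep (-1.71, SE 0.18). Anpep remained a bright signal, at 11.49 and 12.18 in KO against 13.54 and 13.56 in WT. The alkaline phosphatase Alpi went the other way, from 12.55 and 12.44 in WT to 12.82 and 13.00 in KO (0.42, SE 0.11). Its call ended without KO mouse 2 (0.33) and without WT mouse 2 (0.36). The cytoskeleton of the microvilli was less reduced than the enzymes it carries, as medians: of 19 members 14 fell and 0 rose, with a median of -0.49, and 9 fell without WT mouse 1. Villin, Vil1, the actin bundler of the microvillus core, fell by 0.96 (SE 0.09) and the brush border myosin Myo1a by 0.79 (SE 0.09). The scaffold Pdzk1, which holds transporters at the membrane, fell by 3.60 (SE 0.15).

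Uptake proteins fell across nutrient classes. In the transporter list 23 of 30 members fell and 1 rose (median -1.64). For sugars, the glucose transporter Slc5a1 fell by 1.91 (SE 0.20) and the fructose transporter Slc2a5 by 2.02 (SE 0.36). For peptides and amino acids, Slc15a1 fell by 2.05 (SE 0.19), Slc6a19 by 2.28 (SE 0.21) and Slc1a1, the glutamate carrier, by 3.69 (SE 0.13). For vitamins, the folate carrier Slc46a1 fell by 2.22 (SE 0.14), and Cubn, the vitamin B12 receptor, fell by 3.23 (SE 0.36). The sulfate transporter Slc13a1 rose, from 7.57 and 7.62 in WT to 9.79 and 8.88 in KO (1.74, SE 0.33). The list mean, set against the WT mean of day 12, was -1.95 in KO mouse 1 and -1.53 in KO mouse 2, with WT at 0.07 and -0.07, so the mice of each genotype lay far closer to each other than the genotypes did.

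Lipid handling fell as well. Of 24 genes of lipid absorption and chylomicron assembly 13 fell and 1 rose (median -0.77). Fabp1, a fatty acid binding protein of enterocytes and liver, fell 5.32-fold, from 11.83 and 12.11 to 9.54 and 9.56 (difference -2.41, SE 0.10). The apolipoprotein Apoc3 fell by 2.03 (SE 0.18), the cholesterol importer Npc1l1 by 1.89 (SE 0.13) and Mogat2, which rebuilds triglyceride, by 1.72 (SE 0.08). Scarb1, a lipoprotein receptor, rose (0.42, SE 0.08). In fatty acid oxidation 14 of 22 members fell and 1 rose (median -0.65), with the hydroxyacyl-CoA dehydrogenase Hadh lower (difference -2.48, SE 0.11), as was Decr1 (-1.89, SE 0.10). The long-chain enzyme Acadl rose instead, from 9.75 and 9.93 to 11.67 and 11.92 (1.96, SE 0.16). The respiratory chain of the mitochondria fell in 21 of 25 members, and 0 rose (median -0.71). Sdha, a subunit of complex II, fell by 1.13 (SE 0.09), Ndufs1, of complex I, by 1.02 (SE 0.08), and Ppargc1a, the coactivator that promotes the making of mitochondria, by 3.80 (SE 0.26).

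Drug-metabolising and nitrogen-handling enzymes showed falls and a few rises. Of 30 cytochrome P450 and conjugation genes 19 fell and 3 rose (median -0.94). The carboxylesterase Ces2a fell by 4.01 (SE 0.46), Ces2e by 3.46 (SE 0.16) and the P450 Cyp2c66 by 3.36 (SE 0.21). Members of these families are close in sequence, so their signals may share RNA. Gsta4, a glutathione transferase that clears lipid peroxidation products, rose from 9.22 and 9.34 to 12.49 and 12.34 (3.13, SE 0.20), and Cyp3a13 rose by 1.24 (SE 0.11). In the list of sphingolipid, glutamine and citrulline metabolism 11 of 22 members fell and 5 rose (median -0.58). The neutral ceramidase Asah2 fell 15.4-fold, from 12.90 and 12.79 to 8.83 and 8.98 (-3.94, SE 0.09). Enzymes of citrulline synthesis fell together: Oat by 2.68 (SE 0.14), Otc by 2.07 (SE 0.20), Cps1 by 1.74 (SE 0.16) and Aldh18a1 by 1.31 (SE 0.09). Sat1, which acetylates polyamines, rose (0.98, SE 0.12).

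Genes of cholesterol synthesis rose, unlike the rest of lipid metabolism. Of 18 members 13 rose and 2 fell, with a median of 0.74, against 0.15 at day 9. Hsd17b7 rose from 8.69 and 8.48 in WT to 10.30 and 10.80 in KO (difference 1.97, SE 0.16), the squalene epoxidase Sqle from 8.75 and 8.25 to 9.95 and 10.01 (1.48, SE 0.18) and the demethylase Cyp51 from 8.89 and 8.73 to 10.01 and 10.33 (1.36, SE 0.13). Dhcr7, of the last step of the pathway, fell (-1.08, SE 0.20). The count of rises was 8 without WT mouse 2, and 17 of 18 members were lower in KO mouse 1 than in KO mouse 2. The WT level also moved over days: the list mean relative to WT of day 12 was 0.22 and 0.47 in WT at day 6 and 0.34 and 0.14 at day 9, against 0.51 and 0.85 in KO at day 12. KO mouse 1 of day 12 thus lay near the highest WT array of the earlier days, and how far the lower WT level of day 12 makes the difference was not tested. The promoter of Hmgcs1, the enzyme that feeds the pathway (0.73, SE 0.16, a call that ended without WT mouse 2 at 0.58), is shown because it is the member whose promoter held the sterol element searched. The motif TCACNCCAC, read on both strands, was in 1 of 14 members with a promoter and in 1.4% of all 15614 genes with one. Capitals mark the match in the 250 bases before the start site (RefSeq, GRCm38.p6, chr13:119690101-119690350, plus strand), and a match is a description of letters only.
Hmgcs1: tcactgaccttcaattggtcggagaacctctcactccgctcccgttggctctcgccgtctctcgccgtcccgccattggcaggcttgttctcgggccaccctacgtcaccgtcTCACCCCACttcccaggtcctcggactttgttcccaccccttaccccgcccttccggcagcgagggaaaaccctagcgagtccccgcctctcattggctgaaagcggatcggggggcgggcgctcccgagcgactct

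At the crypt base the pattern was split. Of 19 stem cell genes 10 fell and 2 rose, with a median of -0.49, and 6 fell without WT mouse 1. Lgr5, the receptor that marks cycling stem cells, fell from 7.78 and 7.56 to 5.31 and 5.77 (difference -2.13, SE 0.16). The Wnt target Axin2 fell by 1.73 (SE 0.15) and the water channel Aqp4 by 1.73 (SE 0.12). Ascl2, a transcription factor of stem cells, fell by 0.67 (SE 0.20), a call that ended without KO mouse 1 (-0.59), KO mouse 2 (-0.75) or WT mouse 1 (-0.25). Sox9, a transcription factor of the crypt, rose by 1.10 (SE 0.16) and the RNA-binding protein Msi1 by 0.95 (SE 0.10). Rnf43 and Znrf3, which remove Wnt receptors from the surface, stood at 0.02 (SE 0.16) and 0.06 (SE 0.12) and did not pass.

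The regenerative list had the highest median of the 51 lists, 1.96, with 15 of 19 members higher and 1 lower. Its rank depends in part on the choice of members, which include Anxa10, the largest rise of day 12. Beside Anxa10, Sprr1a and Il1rn, the acyltransferase Mboat1 rose from 7.13 and 6.78 to 10.60 and 10.67 (difference 3.68, SE 0.14). The calcium-binding S100a6 rose from 7.47 and 7.0 to 10.69 and 10.12 (3.17, SE 0.18), and the annexin Anxa1, an anti-inflammatory protein, from 7.05 and 7.03 to 9.84 and 9.78 (2.77, SE 0.18). In these genes the lowest KO signal was well above the highest WT signal. Clu, clusterin, stood at 7.47 and 9.28 in WT and 10.62 and 10.05 in KO (1.96, SE 0.66). The WT pair of Clu was 1.81 apart and its call ended in 8 of the 20 other settings, among them without KO mouse 1 (1.67), KO mouse 2 (2.24) or WT mouse 1 (1.05). The alarmin Il33 fell from 9.23 and 9.37 to 8.12 and 8.62 (-0.93, SE 0.25), where at day 9 it had been higher in KO by 1.36, and the change between the days passed (-2.29, SE 0.35, adjusted p = 0.00621). The day 12 fall ended without KO mouse 1 (-0.68) or WT mouse 2 (-0.86). Targets of YAP, the growth regulator linked to this programme, rose in 8 of 20 and fell in 1 (median 0.24). The rises included the clotting initiator F3 (1.81, SE 0.08) and the matricellular Ccn2 (1.46, SE 0.29). The defining member Ankrd1, dim in both genotypes, stood at 0.02 (SE 0.16) and did not pass, nor did Amotl2 (0.02, SE 0.16) or Lats2 (0.18, SE 0.10).

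Because members of the regenerative list rose together, their promoters were searched for TGANTCA, the letters bound by AP-1 factors, which read the same on both strands. The motif was in 4 of 13 members with a promoter of 300 bases, the genes Anxa10, Il1rn, Gja1 and Sprr1a, and in 8.08% of all genes with a promoter. The 250 bases before the start of Anxa10 (chr8:62123194-62123443, minus strand), Sprr1a (chr3:92485882-92486131, minus strand) and 1 of 3 listed promoters of Il1rn (chr2:24336610-24336859, plus strand) are shown, 5′ to 3′, from RefSeq (GRCm38.p6), with matches in capitals. For Il1rn, promoters that held the motif were preferred in choosing the one shown.
Anxa10: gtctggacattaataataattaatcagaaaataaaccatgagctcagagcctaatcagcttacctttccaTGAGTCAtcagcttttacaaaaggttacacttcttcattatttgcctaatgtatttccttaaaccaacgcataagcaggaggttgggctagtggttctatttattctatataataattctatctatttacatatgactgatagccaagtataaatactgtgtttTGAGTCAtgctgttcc
Sprr1a: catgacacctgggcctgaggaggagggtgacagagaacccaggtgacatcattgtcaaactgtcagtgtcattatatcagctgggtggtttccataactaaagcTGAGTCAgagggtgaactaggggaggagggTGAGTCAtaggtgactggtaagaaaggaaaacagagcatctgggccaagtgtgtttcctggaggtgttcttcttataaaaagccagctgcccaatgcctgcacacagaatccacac
Il1rn: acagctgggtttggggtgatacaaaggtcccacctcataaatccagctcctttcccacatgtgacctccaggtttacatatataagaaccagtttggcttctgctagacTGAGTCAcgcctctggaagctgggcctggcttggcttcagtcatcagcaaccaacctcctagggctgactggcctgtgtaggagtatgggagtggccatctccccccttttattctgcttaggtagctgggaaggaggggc
Anxa10 and Sprr1a each held 2 matches and Il1rn held 1. The motif was chosen with the results known, and a match says nothing about binding.

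Ligands of the EGF receptor and the feedback genes of its MAP kinase pathway had the second highest median, 0.98, with 21 of 29 members higher and 1 lower. Among the ligands, betacellulin, Btc, rose from 7.07 and 6.86 in WT to 10.74 and 10.70 in KO (difference 3.75, SE 0.10) and epiregulin, Ereg, from 8.56 and 7.69 to 10.67 and 10.93 (2.68, SE 0.29). The receptor Egfr itself rose by 0.71 (SE 0.11), while its partner Erbb2 fell by 0.66 (SE 0.10). Among the phosphatases that turn MAP kinases off, Dusp1 rose from 8.80 and 8.27 to 11.37 and 11.52 (2.91, SE 0.24), Dusp10 by 1.89 (SE 0.21) and Dusp4 by 1.73 (SE 0.17). Other members of both kinds did not pass: the ligands Hbegf (0.22) and Egf (-0.05), the phosphatase Dusp6 (0.27) and the inhibitor Spry2 (0.45).

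The integrated stress response, in which ATF4 raises genes for amino acid uptake and synthesis, had 17 of 24 members higher and 0 lower (median 0.97). Atf4 rose from 8.01 and 8.01 to 9.23 and 8.90 (difference 1.06, SE 0.12). Of its known targets, the asparagine synthetase Asns rose from 9.22 and 9.16 to 11.20 and 11.02 (1.92, SE 0.18), Chac1, which breaks down glutathione, by 1.69 (SE 0.17) and the folate enzyme Mthfd2 by 1.54 (SE 0.13). Slc7a11 and Vldlr are members of this list too. The pro-death factor Ddit3 rose by 0.74 (SE 0.17), a call that ended without KO mouse 1 (0.50). Not every member moved: the serine enzyme Phgdh stood at -0.12 and the secreted factor Fgf21 at 0.04, and neither passed.

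The motif TGATGNAA, the letters of the C/EBP-ATF response element, was in 8 of 20 members of this list with a promoter and in 3.62% of all genes with one. On the 15 called members with a promoter the count was 7. The 250 bases before the start of Asns (chr6:7693210-7693459, minus strand), Slc7a11 (chr3:50443614-50443863, minus strand) and 1 of 2 listed promoters of Vldlr (chr19:27216770-27217019, plus strand) are printed because these genes are among the strongest rises of the list. For Vldlr, promoters that held the motif were preferred in choosing the one shown. Capitals mark the motif or its reverse complement (RefSeq, GRCm38.p6).
Asns: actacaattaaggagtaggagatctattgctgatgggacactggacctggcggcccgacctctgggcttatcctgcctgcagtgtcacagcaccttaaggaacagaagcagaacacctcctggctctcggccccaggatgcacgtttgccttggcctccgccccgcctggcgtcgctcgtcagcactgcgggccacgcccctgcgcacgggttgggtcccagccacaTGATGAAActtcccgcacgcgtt
Slc7a11: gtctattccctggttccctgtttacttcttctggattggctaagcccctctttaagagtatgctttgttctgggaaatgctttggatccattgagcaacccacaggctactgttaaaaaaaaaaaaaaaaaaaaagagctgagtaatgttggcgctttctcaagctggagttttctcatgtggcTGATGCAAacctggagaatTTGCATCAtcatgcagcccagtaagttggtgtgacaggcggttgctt
Vldlr: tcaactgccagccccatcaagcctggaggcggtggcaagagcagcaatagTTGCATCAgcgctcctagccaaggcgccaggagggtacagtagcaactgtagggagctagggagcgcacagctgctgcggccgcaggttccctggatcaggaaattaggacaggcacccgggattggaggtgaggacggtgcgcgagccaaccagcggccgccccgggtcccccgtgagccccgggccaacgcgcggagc
In Asns the match ended 16 bases before the start site, in Slc7a11 there were 2 matches facing opposite ways, and in Vldlr the single match lay 193 bases away.

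The other branch of the response to misfolded protein did not rise. Of 23 genes of the unfolded protein response of the endoplasmic reticulum 13 fell and 1 rose (median -0.37). The oxidoreductase Ero1b fell by 1.82 (SE 0.15), the disulfide isomerase Pdia4 by 1.17 (SE 0.12) and the chaperone Hyou1 by 0.94 (SE 0.13). At day 9 Hyou1 had stood at 0.10, and the change between days passed (-1.04, SE 0.18, adjusted p = 0.0109). Targets of NRF2, the sensor of oxidants, rose in 12 of 23 with 0 lower (median 0.61). They included the aldo-keto reductase Akr1b8 (2.35, SE 0.21), the heme oxygenase Hmox1, from 5.86 and 6.05 to 8.03 and 7.73 (1.92, SE 0.13), and the malic enzyme Me1 (1.87, SE 0.21). The motif TGANNNNGC, the core of the antioxidant response element, was in 13 of 19 members with a promoter, beside 45.8% of all genes with one. Genes of hypoxia and glycolysis rose in 12 of 24 and fell in 3 (median 0.44), led by the mitochondrial protein Fam162a (3.41, SE 0.15) and the glucose transporter Slc2a1, from 8.92 and 8.81 to 11.40 and 11.16 (2.41, SE 0.13). The defining member Vegfa stood at -0.19 (SE 0.11) and did not pass.

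Iron genes moved in both directions. In the list of 20, 10 rose and 5 fell (median 0.48). The exporter Slc40a1 and the reductase Cybrd1 rose, as given above, and the metal importer Slc39a8 rose from 9.21 and 9.05 to 11.04 and 11.50 (difference 2.14, SE 0.16). The iron importer of the brush border, Slc11a2, fell by 0.90 (SE 0.11) and the transferrin receptor Tfrc by 0.92 (SE 0.13). Epas1, the hypoxia factor that drives iron uptake genes in the gut, rose by 0.96 (SE 0.14). Lcn2, a siderophore-binding defence protein, rose by 1.18 (SE 0.16). The iron hormone Hamp was dim in all 4 arrays.

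Genes of mitosis fell. In the list of 29, 25 fell and 0 rose, with a median of -0.87. Top2a, the topoisomerase that untangles replicated DNA, fell from 9.04 and 9.24 in WT to 7.31 and 7.61 in KO (difference -1.67, SE 0.12). Nusap1, a spindle protein, fell from 7.99 and 8.25 to 6.14 and 6.67 (-1.72, SE 0.16) and the proliferation marker Mki67 from 10.25 and 10.48 to 8.29 and 9.20 (-1.62, SE 0.23). The spindle motor Kif11 fell by 1.51 (SE 0.13). The KO arrays were below the WT arrays in each of these, and 28 of the 29 members were lower in KO mouse 1 than in KO mouse 2. The list mean was -1.07 in KO mouse 1 and -0.68 in KO mouse 2, with WT at -0.07 and 0.07. Cep55 and Anln, which act in the final separation of daughter cells, stood at 0.23 (SE 0.12) and 0.04 (SE 0.09) and did not pass. Genes of DNA replication fell in 19 of 29 with 0 higher (median -0.64), among them the primase Prim1 (-1.53, SE 0.14) and the helicase subunit Mcm6 (-1.18, SE 0.10).

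The motif TTTGAA, the core of the homology region found in many genes of the late cell cycle, was in 20 of 26 mitosis genes with a promoter and in 17.3% of all genes with one. Among the 22 called members with a promoter the count was 16. The 250 bases before the start of Top2a (RefSeq, GRCm38.p6, chr11:99024190-99024439, minus strand) are shown with both matches in capitals, as an example from this list.
Top2a: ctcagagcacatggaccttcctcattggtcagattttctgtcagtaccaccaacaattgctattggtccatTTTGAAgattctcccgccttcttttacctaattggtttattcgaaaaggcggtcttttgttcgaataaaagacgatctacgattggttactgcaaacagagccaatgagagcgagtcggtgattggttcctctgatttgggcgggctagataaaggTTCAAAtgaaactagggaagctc

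The centrosome genes, the family of Cep43, moved little as a group: 6 of 30 fell and 2 rose, with a median of -0.09, beside 13.7% in each direction over all genes. The centriole assembly protein Sass6 fell by 1.04 (SE 0.19) and the duplication kinase Plk4 by 0.54 (SE 0.11), while Stil, their partner in centriole assembly, rose from 6.93 and 7.14 to 7.75 and 8.32 (1.00, SE 0.16). Targets of p53 rose in 9 of 20 and fell in 3 (median 0.33). The kinases Plk2 (2.33, SE 0.15) and Plk3 (1.83, SE 0.17) rose, the death receptor Fas fell (-0.97, SE 0.14), and Mdm2, the p53 inhibitor and target, stood at -0.17 (SE 0.25) and did not pass. Cell death effectors fell in 12 of 26 and rose in 2 (median -0.36). The gasdermin Gsdmc2 fell by 3.49 (SE 0.26), with a KO mean near the dim limit, the death ligand Tnfsf10 by 3.75 (SE 0.14) and the inflammasome adaptor Pycard from 10.35 and 10.35 to 7.22 and 7.24 (-3.12, SE 0.12). The necroptosis genes Ripk3 (-0.13, SE 0.19) and Mlkl (0.43, SE 0.16) did not pass.

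Secretory lineages differed from each other. Of 17 Paneth cell genes and Reg lectins 10 fell and 2 rose (median -0.49), with 5 falls without WT mouse 1. Clec2h, a lectin-like receptor ligand, fell from 12.78 and 12.83 to 9.22 and 9.62 (difference -3.39, SE 0.13), and the ribonuclease Ang4 by 1.49 (SE 0.19). The defining marker Lyz1, lysozyme, moved from 13.70 and 13.49 to 13.24 and 13.14 (-0.41, SE 0.11), a call that ended without KO mouse 2 (-0.36) or WT mouse 1 (-0.30). Goblet cell genes rose in 7 of 22 and fell in 2 (median 0.11), with 4 rises without KO mouse 1 or without WT mouse 2. The fucosyltransferase Fut2 rose from 6.38 and 6.06 to 9.70 and 8.72 (2.99, SE 0.33) and the chloride channel regulator Clca1 fell (-0.75, SE 0.15). The main mucin Muc2 stood at 12.83 and 12.89 in WT and 13.07 and 12.89 in KO (0.12, SE 0.13) and did not pass.

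Enteroendocrine genes fell in 6 of 23 and rose in 2 (median -0.24). Among the hormones neurotensin, Nts, fell from 8.22 and 7.83 to 5.53 and 5.25 (difference -2.64, SE 0.19), somatostatin, Sst, by 1.5 (SE 0.13) and Gip by 1.27 (SE 0.13). Other hormone genes did not pass, with Cck at -0.01, Sct at 0.18, Pyy at -0.46 and Tac1 at 0.29. The transcription factor Neurod1, which acts early in the lineage, rose by 0.78 (SE 0.13). Tuft cell genes fell in 10 of 18 and rose in 1 (median -0.46), with 6 falls without WT mouse 2. Rgs13, a brake on G protein signals, fell from 6.96 and 7.15 to a dim 3.91 and 4.33 (-2.94, SE 0.19) and the kinase Dclk1 by 1.20 (SE 0.12).

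Transcription factors of intestinal identity fell in 11 of 21 and rose in 2 (median -0.33), with 6 falls without WT mouse 1. The vitamin D receptor Vdr fell from 11.66 and 11.67 to 8.65 and 8.95 (difference -2.87, SE 0.12), the leucine zipper factor Maf by 2.02 (SE 0.17) and Gata4 by 0.78 (SE 0.15). Cdx2, the master factor of the intestine, moved by -0.44 (SE 0.11), a call that ended without KO mouse 2 (-0.40) or WT mouse 1 (-0.32), and Hnf4a stood at -0.26 (SE 0.12) and did not pass. Isx, a homeobox factor that controls vitamin A uptake, rose by 0.77 (SE 0.11). Among genes of squamous or gastric epithelium 8 of 30 rose and 0 fell (median 0.15). Beside Anxa10 and Sprr1a, Dsg3, a desmosomal cadherin of skin, rose from a dim 4.23 and 4.29 to 7.30 and 6.52 (2.65, SE 0.19) and Krt7, a keratin of simple ducts, by 1.57 (SE 0.16). Of the 6 defining members of this list 2 passed, Sprr1a and the gastric trefoil peptide Tff1, which stood at 5.73 and 5.83 in WT and at 6.69 and 5.96 in KO (0.54, SE 0.18). The call of Tff1 ended in 13 of the 20 other settings, among them without KO mouse 1 (0.18). The gastric Muc5ac (0.08) and Tff2 (0.11), the squamous Trp63 (0.17) and Sox2 (-0.09), a transcription factor of foregut epithelia, did not pass. Segment markers rose in 4 of 17 and fell in 3 (median 0.11). The ileal bile acid importer Slc10a2 rose from 6.08 and 5.79 to 9.22 and 9.33 (3.34, SE 0.17), while the ileal Fabp6 (0.02) and Fgf15 (-0.11) did not pass. In the bile acid list 3 of 16 rose and 5 fell (median 0.08), with Slc51b, the exporter at the other side of the cell, lower (-2.15, SE 0.10). Its falls numbered 3 without KO mouse 1 and 2 without WT mouse 1.

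**Figure D2:**
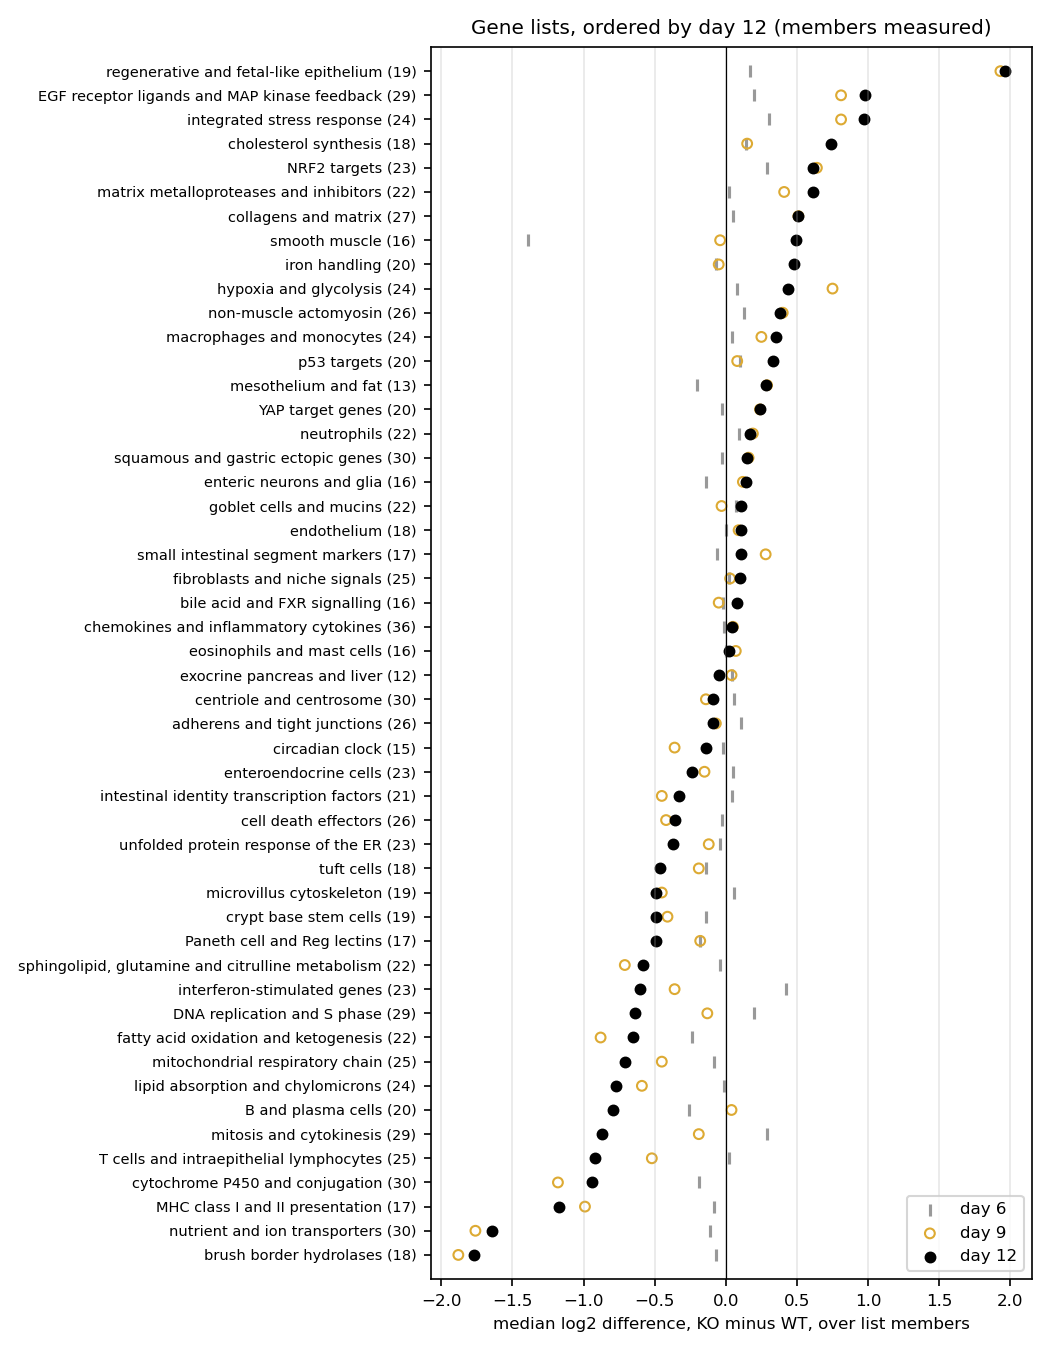
Median log2 difference (KO minus WT) of each gene list at days 6, 9 and 12, ordered by day 12, with the number of members measured in brackets; the sex-linked list is left out. The regenerative list has the highest median at day 12 (1.96) and the brush border hydrolases the lowest (-1.77), while cholesterol synthesis, iron handling, mitosis and DNA replication lie away from their day 9 values. The lists were chosen with earlier results of these data known.

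Immune genes of antigen presentation and lymphocytes fell. Of 17 genes of MHC class I and II presentation 14 fell and 0 rose (median -1.17). The immunoproteasome subunits Psmb10 and Psmb8 fell by 2.18 (SE 0.18) and 2.10 (SE 0.25), the peptide transporter Tap1 by 1.72 (SE 0.21) and the class II gene H2-Ab1 from 11.62 and 11.48 to 10.27 and 9.70 (-1.56, SE 0.23). In 16 of these genes KO mouse 2 was the lower of the KO pair, the reverse of the absorptive lists. T cell and intraepithelial lymphocyte genes fell in 19 of 25 with 0 higher (median -0.92). The granzyme Gzma fell from 8.40 and 9.06 to 6.54 and 5.57 (-2.68, SE 0.29), Gzmb by 2.28 (SE 0.28), the receptor chain Cd3g from 7.75 and 8.06 to 6.07 and 5.53 (-2.10, SE 0.17), and the integrin Itgae, which holds lymphocytes in the epithelium, by 1.17 (SE 0.11). Interferon-stimulated genes fell in 12 of 23 with 0 higher (median -0.60), among them Ifit1 (-2.39, SE 0.30), Oasl2 (-2.18, SE 0.25) and the RNA sensor Ddx58 (-1.92, SE 0.10). Their list mean was -0.19 in WT mouse 1 and 0.19 in WT mouse 2, a wider WT pair than in most lists, and -0.66 and -0.82 in KO.

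B and plasma cell genes fell in 9 of 20 and rose in 1 (median -0.79), with 5 falls without KO mouse 2 or without WT mouse 2. The antibody joining chain Jchain fell from 11.51 and 11.47 to 10.29 and 9.76 (difference -1.46, SE 0.18) and the plasma cell chaperone Mzb1 by 1.13 (SE 0.15). The B cell surface protein Ms4a1 stood at 3.91 and 7.15 in WT, and the receptor component Cd79a at 6.08 and 7.63. The 2 WT arrays thus differed widely in B cell markers, and the part of this in other differences was not tested.

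Among the myeloid lists, rises were clearest for macrophages and monocytes, to be read beside the 13.7% of all genes that rose. Neutrophil, eosinophil and mast cell genes rose less often and had lower medians, and the eosinophil and mast cell count depended on KO mouse 2. Of 24 macrophage and monocyte genes 10 rose and 3 fell (median 0.35), among them the chitinase-like Chil3 (1.53, SE 0.19), dim in WT, the mannose receptor Mrc1, from 8.44 and 8.31 to 9.20 and 9.61 (1.03, SE 0.16), and the Fc receptor Fcgr3 (0.81, SE 0.11). The tissue macrophage marker Adgre1 moved the other way (-0.38, SE 0.13), a call that ended in 10 of the 20 other settings. Of 22 neutrophil genes 5 rose and 1 fell (median 0.17): the resistin-like Retnlg rose from 6.43 and 6.46 to 9.07 and 9.02 (2.60, SE 0.23), while the defining markers S100a8 (0.21), Cxcr2 (0.29) and Csf3r (0.02) did not pass. Among 16 genes of eosinophils and mast cells 4 rose and 1 fell (median 0.02), with 2 rises without KO mouse 2. Il5ra, the interleukin 5 receptor, rose from a dim 4.40 and 4.46 to 6.46 and 7.43 (2.52, SE 0.22), and the mast cell markers Mcpt1 and Cpa3 were dim in all 4 arrays. Chemokines and cytokines fell in 9 of 36 and rose in 5 (median 0.04). The epithelial chemokines Ccl28 (-3.36, SE 0.16) and Ccl25 (-2.22, SE 0.10), which call lymphocytes to the gut, fell, and Cxcl16 rose (1.49, SE 0.16).

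In the connective tissue, genes of matrix and its turnover rose. Of 27 collagen and matrix genes 16 rose and 0 fell (median 0.51). This count was 10 without KO mouse 1 and 9 without WT mouse 1 or without WT mouse 2. The crosslinking enzyme Lox rose from 5.78 and 5.67 to 7.03 and 7.72 (difference 1.65, SE 0.22), the laminin chain Lamb3 by 1.52 (SE 0.15), thrombospondin, Thbs1, by 1.46 (SE 0.13) and fibronectin, Fn1, by 1.19 (SE 0.21). The fibrillar collagen Col1a1 moved from 9.14 and 9.14 to 9.97 and 9.45 (0.57, SE 0.18), and its call ended without KO mouse 1 (0.31), WT mouse 1 (0.57) or WT mouse 2 (0.57). Proteases and inhibitors rose in 13 of 22 and fell in 1 (median 0.61), with the urokinase receptor Plaur (2.55, SE 0.14), the plasminogen activator Plat (2.36, SE 0.17) and the serpin Serpinb5, dim in WT (2.09, SE 0.16). Mmp13, a collagenase, fell (-1.0, SE 0.16). Genes of non-muscle actomyosin rose in 11 of 26 and fell in 2 (median 0.38), led by the small GTPase Rhoc (1.55, SE 0.11) and the actin crosslinker Actn1 (1.5, SE 0.10).

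Smooth muscle genes are given beside these because the muscle coat is part of the tissue. Their list mean was 0.74 in KO mouse 1 and 0.22 in KO mouse 2, against -0.05 and 0.05 in WT, and 15 of 16 members were higher in KO mouse 1 than in KO mouse 2. Only Myocd, their master regulator, passed (difference 0.55, SE 0.19), and its call ended in 9 of the 20 other settings, among them without KO mouse 1 (0.41). The count was 3 without KO mouse 2 and 0 without any other array of day 12. Acta2, the muscle actin, stood at 11.69 and 11.71 in WT and 12.36 and 12.05 in KO (0.50) and did not pass. The part of muscle content in the rises of matrix genes was not tested. Other stromal lists were near the background or under it: fibroblast and niche genes rose in 3 of 25 and fell in 2, endothelial genes rose in 1 of 18 and genes of enteric neurons and glia in 1 of 16. Without KO mouse 2 the endothelial count was 3 and the neuronal count 2. The single neuronal rise was that of Ret, a growth factor receptor (2.47, SE 0.16), from 6.72 and 6.73 to 9.28 and 9.10. Of genes of neighbouring tissues, 4 of 13 for mesothelium and fat rose, 2 without KO mouse 2 or WT mouse 1 and 1 without WT mouse 2, and 1 of 12 for pancreas and liver. Junction genes rose in 4 of 26 and fell in 4 (median -0.09); the pore-forming claudin Cldn2 rose by 1.88 (SE 0.16), Cldn8 by 2.42 (SE 0.13), and Cldn15, the claudin of the small intestine, fell by 1.44 (SE 0.10).

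The 2 KO mice of day 12 were the least alike pair of the series. The median absolute gap between them over genes was 0.153, against 0.0915 to 0.135 in the other 5 groups, and 0.10 between the WT mice of day 12. A total of 117 genes differed by more than 1 log2 unit between the KO mice, beside 38 between the WT mice, and in 97 of the 117 KO mouse 2 was the higher. Among the 10 widest named genes, the sugar transporter Slc2a2 stood at 10.33 in KO mouse 1 and 12.08 in KO mouse 2, with WT at 12.53 and 12.62. The amino acid transporter Slc7a8 stood at 7.80 and 9.59 in KO and at 11.97 and 12.01 in WT. The peroxiredoxin-like Prxl2a stood at 9.44 and 11.52 against 12.16 and 12.25, and the glycosyltransferase Gcnt4 at 7.49 and 9.21 against 10.62 and 10.73. The endosomal sorting protein Vps33b stood at 9.09 and 10.73 against 10.74 and 11.05, and its difference of -0.99 did not pass. In these 5 genes KO mouse 2 lay between KO mouse 1 and the WT mice.

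Not all wide genes followed that order. The metalloelastase Mmp12, a product of macrophages, stood at 5.33 in KO mouse 1 and 7.09 in KO mouse 2, with WT at 4.91 and 5.04, so that KO mouse 2 was the farther from WT. The complement component C7 stood at 7.76 and 9.46 in KO and 7.60 and 8.34 in WT, and Uprt, a homologue of uracil phosphoribosyltransferase, at 10.61 and 12.28 in KO and 11.39 and 11.64 in WT. Duoxa2, which matures a peroxide-producing oxidase, was the wide gene with the higher signal in KO mouse 1, at 8.85 and 7.07, with WT at 8.68 and 7.83. Bin2, a membrane-bending protein of blood cells, stood at 6.37 and 8.59 in KO, with WT at 8.01 and 9.01. For Bin2, Duoxa2, C7 and Uprt the genotypes overlapped. The calls of Slc2a2, Prxl2a and Mmp12 ended when single arrays were left out: without KO mouse 1 Slc2a2 stood at -0.50 and Prxl2a at -0.69, and without KO mouse 2 Mmp12 stood at 0.35. The call of Slc2a2 also ended without WT mouse 1 (-1.41) or WT mouse 2 (-1.32).

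Across all genes the gap went along with the direction of the day 9 difference, which was measured in other mice. Of the 3412 genes that had fallen at day 9, 70.8% were lower in KO mouse 1 than in KO mouse 2 of day 12, and of the 2505 that had risen 28.8% were, beside 46.7% of all genes. The correlation across genes was 0.37, a description over genes of shared arrays. The gap also ran along that between the 2 KO mice of day 9 (0.347), while its correlation with the gaps of the other 4 groups lay between -0.109 and 0.113. Over the genes that fell at day 12, KO mouse 1 was the farther from WT in 59.3%, and over those that rose in 51.5%.

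**Figure D3:**
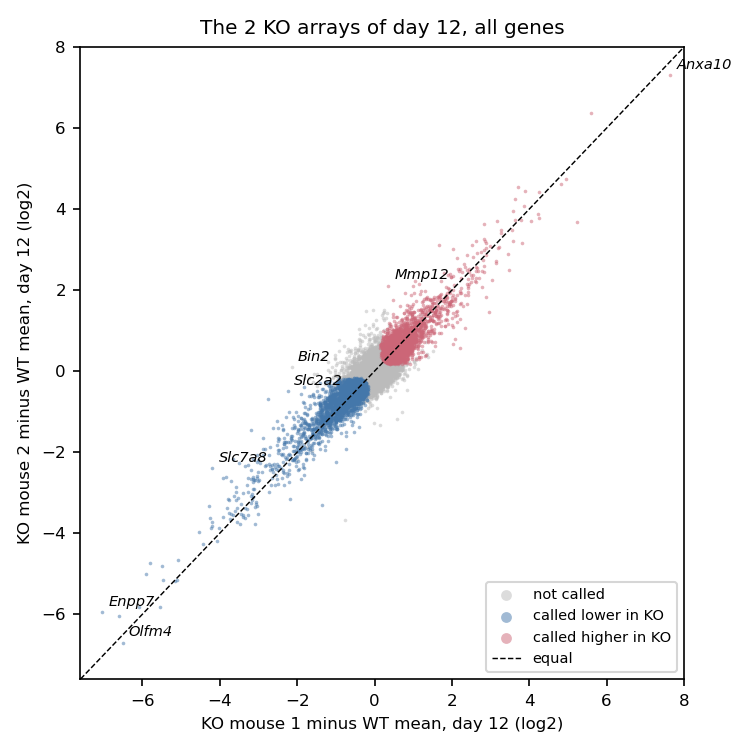
Difference of each KO array of day 12 from the WT mean (log2), with KO mouse 1 on the horizontal and KO mouse 2 on the vertical axis, 1 point per gene, coloured by the call. Most called genes lie along the dashed line of equal values, and genes such as Slc7a8 (-4.19 and -2.40), Slc2a2 (-2.24 and -0.50) and Bin2 (-2.14 and 0.09) lie off it.

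Day 9 had a like number of calls, 5917 (29.7%), and day 6 had 205 (1.03%). The 2 late days shared 3156 calls of the same direction, which were 57.9% of the calls of day 12 and 53.3% of those of day 9. Whether day 12 differed from day 9 was tested directly, as the difference of the KO minus WT differences, with sex differing between the days as given above. Limma called 1212 genes (6.08%), with 810 moving up (4.06%) and 402 moving down (2.02%). The count depended on single arrays: it was 2433 without KO mouse 1 of day 12, 753 without KO mouse 2 of day 12 and 274 without WT mouse 2 of day 9. Of the 810 that moved up, 320 were called higher at day 12 and not called at day 9, 258 were lower at day 9 and not called at day 12, and 64 were lower at day 9 and higher at day 12. Of the 402 that moved down, 138 were lower at day 12 and not called at day 9, and 122 were higher at day 9 and not called at day 12.

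Fezf1 showed the largest change from day 9 to day 12: its KO signals were 5.94 and 5.90 at day 9 and 10.89 and 11.65 at day 12, with WT between 5.2 and 5.44 on both days. The change of the difference was 5.47 (SE 0.26, adjusted p = 5.45e-06). Mucl3 behaved alike, with KO at 4.94 and 5.08 at day 9 and 8.23 and 8.79 at day 12 (change 3.65, SE 0.21). The day 9 difference was 0.51 in both genes. It passed for Mucl3, dim in WT (SE 0.15, adjusted p = 0.0229), and not for Fezf1 (SE 0.19, adjusted p = 0.0623). Both genes were far higher in KO at day 12. Frmd3, a FERM domain protein, was lower in KO at day 9, at 4.51 and 4.35 against 5.29 and 5.50, and higher at day 12, at 7.37 and 7.68 against 5.40 and 5.29 (change 3.15, SE 0.17). The claudin Cldn8, which tightens junctions in distal epithelia, changed by 2.79 (SE 0.19), Heatr6, a HEAT repeat protein, by 1.70 (SE 0.12) and the membrane-anchored Psca by 1.96 (SE 0.15). Among the named moves down, Fabp1 had KO signals of 11.54 and 11.47 at day 9, beside WT at 11.53 and 11.66, and of 9.54 and 9.56 at day 12 (change -2.33, SE 0.15). Nox1, an oxidase that makes superoxide, was higher in KO at day 9 (difference 0.60) and lower at day 12 (-2.22), with a change of -2.82 (SE 0.19). The falls of Asah2 (change -2.50, SE 0.13), the steroid dehydrogenase Hsd17b6 (-2.26, SE 0.15), the sialyltransferase St3gal4 (-1.85, SE 0.15) and Aoc1 (-2.26, SE 0.18) were present at day 9 and larger at day 12.

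**Figure D4:**
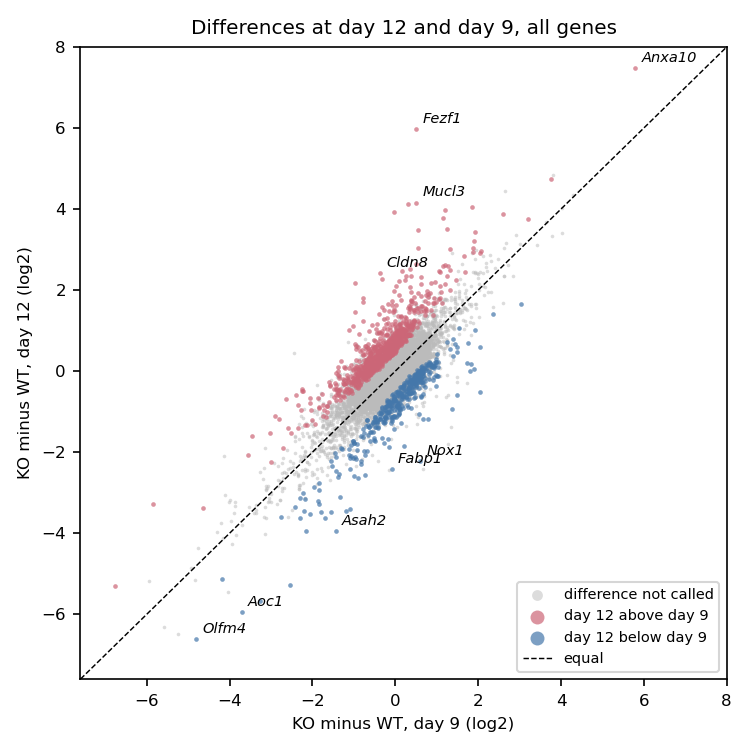
Difference between KO and WT at day 9 (horizontal) and at day 12 (vertical), log2, 1 point per gene, with genes coloured where the change between the days was called. Fezf1 (0.51 and 5.98) lies far above the line of equal differences and Nox1 (0.60 and -2.22) and Fabp1 (-0.09 and -2.41) below it.

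Lists moved unevenly between the days. In mitosis 17 of 29 members moved down and 0 up, where 2.02% of all genes did: Top2a changed by -1.49 (SE 0.17), the survivin gene Birc5 by -1.14 (SE 0.16) and the ubiquitin enzyme Ube2c by -0.97 (SE 0.12). The median of this list was 0.29 at day 6, -0.19 at day 9 and -0.87 at day 12. In DNA replication 9 of 29 moved down and 0 up, among them Mcm6 (-0.89, SE 0.14). In hypoxia and glycolysis 10 of 24 moved down and 2 up. The hexokinase Hk2 went from a difference of 2.05 at day 9 to 0.59 at day 12 (change -1.46, SE 0.27) and the prolyl hydroxylase P4ha1 from 0.82 to -0.06 (-0.89, SE 0.16), against the stress gene Ndrg1, which went from -0.02 to 1.99 (2.01, SE 0.25). Moves up were seen in 6 of 20 iron genes, where 4.06% of all genes did, with Cybrd1 at 2.76 (SE 0.29) and Slc39a8 at 1.54 (SE 0.23), and in 5 of 22 goblet cell genes, such as the calpain Capn9 (1.33, SE 0.22) and the granule protein Sytl2 (1.24, SE 0.21). In the P450 list 6 of 30 moved up toward WT or beyond and 2 moved down. The glucuronosyltransferase Ugt2a3 went from -5.86 to -3.27 (2.59, SE 0.46), so that its fall was smaller at day 12. In the list of the integrated stress response Vldlr alone changed, from 1.14 to 3.77 (2.63, SE 0.20), and in the smooth muscle list 0 of 16 did, at a median difference of -0.04 at day 9 and 0.49 at day 12.

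**Figure D5:**
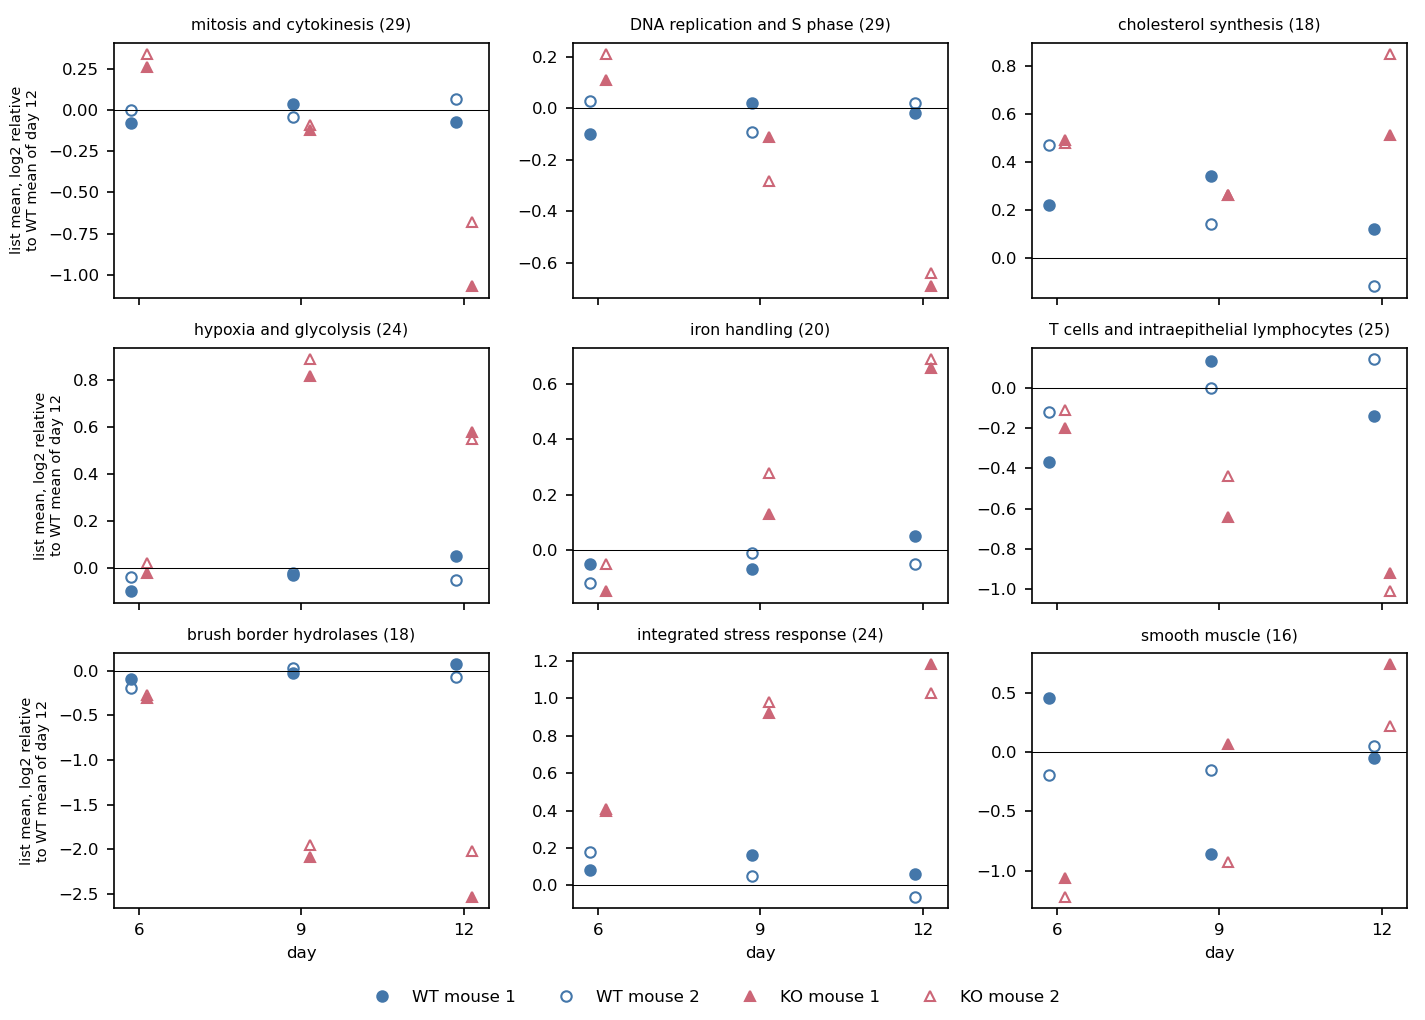
Mean log2 signal of 9 gene lists in each array, relative to the WT mean of day 12, by day, with filled and open symbols for mouse 1 and mouse 2 of each genotype. The mitosis list falls to -1.07 and -0.68 in KO at day 12 from -0.12 and -0.09 at day 9, the hypoxia list stands at 0.58 and 0.55 after 0.82 and 0.89, and the smooth muscle list differs widely between mice of 1 group.

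Against day 6 the change was larger: limma called 2623 genes (13.2%), of which 1124 moved up (5.64%) and 1499 down (7.52%). Anxa10 stood at 4.36 and 4.25 in KO at day 6, within the range of the WT signals of that day (change 7.46, SE 0.22). The KO signals of Slc40a1 at day 6 were 6.06 and 6.13, against 6.09 and 6.37 in WT (change 4.86, SE 0.22), and Serpinb9b at 4.89 and 4.92 (4.21, SE 0.20). The KO signals of Olfm4 at day 6 were 11.57 and 11.71, against 12.28 and 12.02 in WT (change -6.10, SE 0.23). The falls of Aoc1 (-5.63, SE 0.18), Asah2 (-3.86, SE 0.13) and Slc23a1 (-5.01, SE 0.20) were likewise of the later days, as these genes differed by -0.33, -0.08 and -0.12 at day 6 and did not pass there. The count of calls was 1619 without KO mouse 2 of day 6. Without WT mouse 2 of day 6, the array that stood apart in sex-linked genes, it was 2218, with Anxa10 at 7.59, Slc40a1 at 4.72 and Olfm4 at -5.97.

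Genes of the circadian clock may vary with the hour of sampling, which the sources used here do not give. Of 15 measured, 4 rose and 4 fell (median -0.14), among them the output gene Dbp (difference -1.96, SE 0.35) and the clock gene Per1 (1.10, SE 0.16). Their part in other differences was not tested.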

How the data were processed

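RNA of whole jejunum from 12 mice was hybridised to 12 arrays, 2 per genotype and day. The deposited values are log2 signals of 35556 probe sets, normalized by the authors by steps not given in the sources used here; limma and R 3.5 are listed, with no role, per the submitters' processing notes. Array medians lay between 5.95 and 6.02, and the number of arrays limits the precision. Of the probe sets 21789 carried 1 gene symbol, 1621 several and 12146 none. Where a gene had several, the one of highest mean signal in the series was kept, which gave 19938 genes, 19856 of them matched to the RefSeq gene table.

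A model with 1 mean per genotype and day was fitted to all 12 arrays with limma 3.58.1 in R 4.3.3 (6 residual degrees of freedom, moderated with a prior of 5.23), with Benjamini-Hochberg adjustment over all genes. Contrasts were KO minus WT per day, and day 12 minus day 9 and day 12 minus day 6 of these differences. Sex was not a term of the fit. Nothing says that same-numbered mice share a litter or batch, so no block was used. P-values set each difference against the spread pooled over all 12 arrays and moderated across genes, not against that of the day 12 mice alone.

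The comparison, the named-gene rule and the gene lists were chosen with earlier results of these data known. Named were the targeted gene, the 14 largest rises and falls among called genes with groups that do not overlap, the 6 and 4 smallest p-values per direction of the changes against days 9 and 6, and the 10 widest gaps between KO mice, with predicted genes and receptor segments skipped. From each list up to 4 called members with the largest differences, the largest in the other direction and the defining markers were eligible; some further members were named after their values were seen. On simulated data the fit called 67.8% of genes changed 1.5-fold and 97.3% of those changed 2-fold, and 5.96% of its calls were false. The simulation gave every group the same spread and changed far fewer genes than were called at day 12. In the data the KO pair of day 12 was the least alike, so these rates need not hold there. Promoters are the RefSeq GRCm38.p6 stretches from 250 bases before to 50 after the start site. Alternatives covered scaling, a filter on low signal, probe set choice, intensity trend, array weights, a fold threshold, fewer arrays and a replicate block.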

Additional observations from a re-analysis of the deposited data

Results flagged for a closer look

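The difference between KO and WT changed from day 9 to day 12 in 1212 genes by the test of the change itself; sex differs between these days and cannot be told apart from them. Among the named genes it moved up for Fezf1 by 5.47, Mucl3 by 3.65, Frmd3 by 3.15, Cldn8 by 2.79, Psca by 1.96 and Heatr6 by 1.70 (log2). It moved down for Nox1 (-2.82), Asah2 (-2.50), Fabp1 (-2.33), Hsd17b6 (-2.26), Aoc1 (-2.26) and St3gal4 (-1.85). From day 6 to day 12 the difference changed in 2623 genes, where sex differs too. The named moves up were those of Anxa10 (7.46), Fezf1 (5.95), Slc40a1 (4.86) and Serpinb9b (4.21), and the named moves down were those of Olfm4 (-6.10), Aoc1 (-5.63), Slc23a1 (-5.01) and Asah2 (-3.86).

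Probe sets outside the gene analysis also differed at day 12. Of the 12146 without a symbol 563 were called (4.64%), 286 of them higher, and of the 1621 with several symbols 318 were called (19.6%), 168 of them higher.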

How the results depend on the processing

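Calls at day 12 numbered 3740 to 5557 with 1 array left out (3740 without WT mouse 2 of day 12), 5382 with a replicate block, 4633 with array weights and 3988 on the 4 arrays of day 12 alone. Tested against a 1.5-fold change, 1033 genes were called at day 12, 39 for the change from day 9 and 501 for that from day 6. The change from day 9 gave 274 (without WT mouse 2 of day 9) to 2433 calls (without KO mouse 1 of day 12) and 1107 with the replicate block; the change from day 6 gave 1619 to 3046 calls (2218 without WT mouse 2 of day 6), and 2552 with the block. Across genes, the gap between mouse 1 and mouse 2 in KO was set against the same gap in WT. These gaps correlated at 0.18, -0.0897 and 0.113 at days 6, 9 and 12, so the numbers were not taken as pairs. Median centring raised the share of rises among calls from 49.9% to 56.1%. With arrays left out, Cep43 ranged from -0.20 to 0.03 (0.02 without WT mouse 2), Bin2 from -2.14 to 0.09, Duoxa2 from -1.18 to 0.59 (0.13 without WT mouse 1), C7 from -0.21 to 1.49 and Uprt from -0.91 to 0.76 (0.05 without WT mouse 2); Uprt stood at 0.02 after quantile normalisation. None of these was called, and the cause was not tested. Of the 580 called list members 164 lost the call in at least 1 setting and 0 changed direction. The counts of list members without single day 12 arrays were added after seeing the data. List medians that changed sign in some settings included those of chemokines (-0.02 with the filter on low signal), pancreas and liver (0.04 without KO mouse 2) and segment markers (-0.03 without KO mouse 1).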
